A study of Mus musculus with 6 samples.

Results

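The genes described here are 9 members of death receptor and necroptosis signaling (Tnfrsf1a, Ripk1, Birc2, Birc3, Fadd, Casp8, Cflar, Ripk3 and Mlkl), chosen by name, and each was found as a row of its own among the 25330 genes listed for every library. They were measured by RNA-seq in AML12 cells, a mouse hepatocyte line that is kept in medium with serum, insulin, transferrin, selenium and dexamethasone. The study uses wild-type for AML12 cells without its KLF6 knockout, which does not describe the genotype of the line itself. There were 3 Control libraries from cells under normoxia (21% oxygen) and 3 H6R2 libraries (H/R) from cells held for 6 h at 1% oxygen in medium without serum or glucose and then reoxygenated for 2 h. Effects of oxygen and of medium therefore cannot be told apart, and a single cell line stands here for the hepatocyte. The labels do not say whether replicates were separate cultures, so p-values measure the spread between libraries, which may be technical.

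Death receptors of the TNF family pass an outside signal to 1 of several ends. At the TNF receptor TNFR1, encoded by Tnfrsf1a, the kinase RIPK1 is tagged with ubiquitin by cIAP1 and cIAP2 (Birc2 and Birc3), which favours survival. Where that tagging fails, RIPK1 joins the adaptor FADD and the initiator caspase-8, whose activity is set by its catalytically inactive relative c-FLIP (Cflar), and the cell can die by apoptosis. Where caspase-8 is blocked, RIPK1 can instead engage RIPK3, which phosphorylates the pore-forming effector MLKL and causes necroptosis, a lytic form of death. In the liver these receptors are studied as triggers of hepatocyte death.

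After H/R, Cflar rose to 2.13 times its Control level and was the only member past both thresholds of the study, an adjusted p under 0.05 and a fold change of at least 2. That call was lost with scaling by library totals (log2 fold change 0.99) and in both limma fits on log2 RPKM (0.75 and 0.96), where no member was called. Birc3 and Birc2 rose by less, to 1.74 and 1.39 times Control. Fadd fell by 43.2%. Mlkl fell by 19.3%, Casp8 fell by 18.1% and Ripk1 fell by 13.3%. Tnfrsf1a did not pass the test, and Ripk3 had at most 3 counts in any library. The changes are from edgeR's quasi-likelihood test on the deposited counts, with Benjamini-Hochberg adjustment over the 14020 genes that had enough counts. Of all tested genes, 8.52% (1195) passed both thresholds, 596 of them (4.25%) higher and 599 (4.27%) lower after H/R. At a fold change of at least 1.5 it was 24.4% of all tested genes, and 3 members (Cflar and Birc3 higher, Fadd lower). With scaling by library totals in place of TMM the split was 476 higher and 810 lower. An adjusted p under 0.05 alone, the criterion for "rose" and "fell" in this text, was reached by 62.8% of tested genes (31.0% higher and 31.8% lower). Among the 9 members it was reached by 7 (3 higher and 4 lower), while 1 was tested without passing and 1 was not tested. The same 7 members had no overlap between the groups, as did 65.9% of all tested genes. The median log2 fold change of the 8 tested members was -0.15, beside -0.01 for all tested genes.

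**Figure D1:**
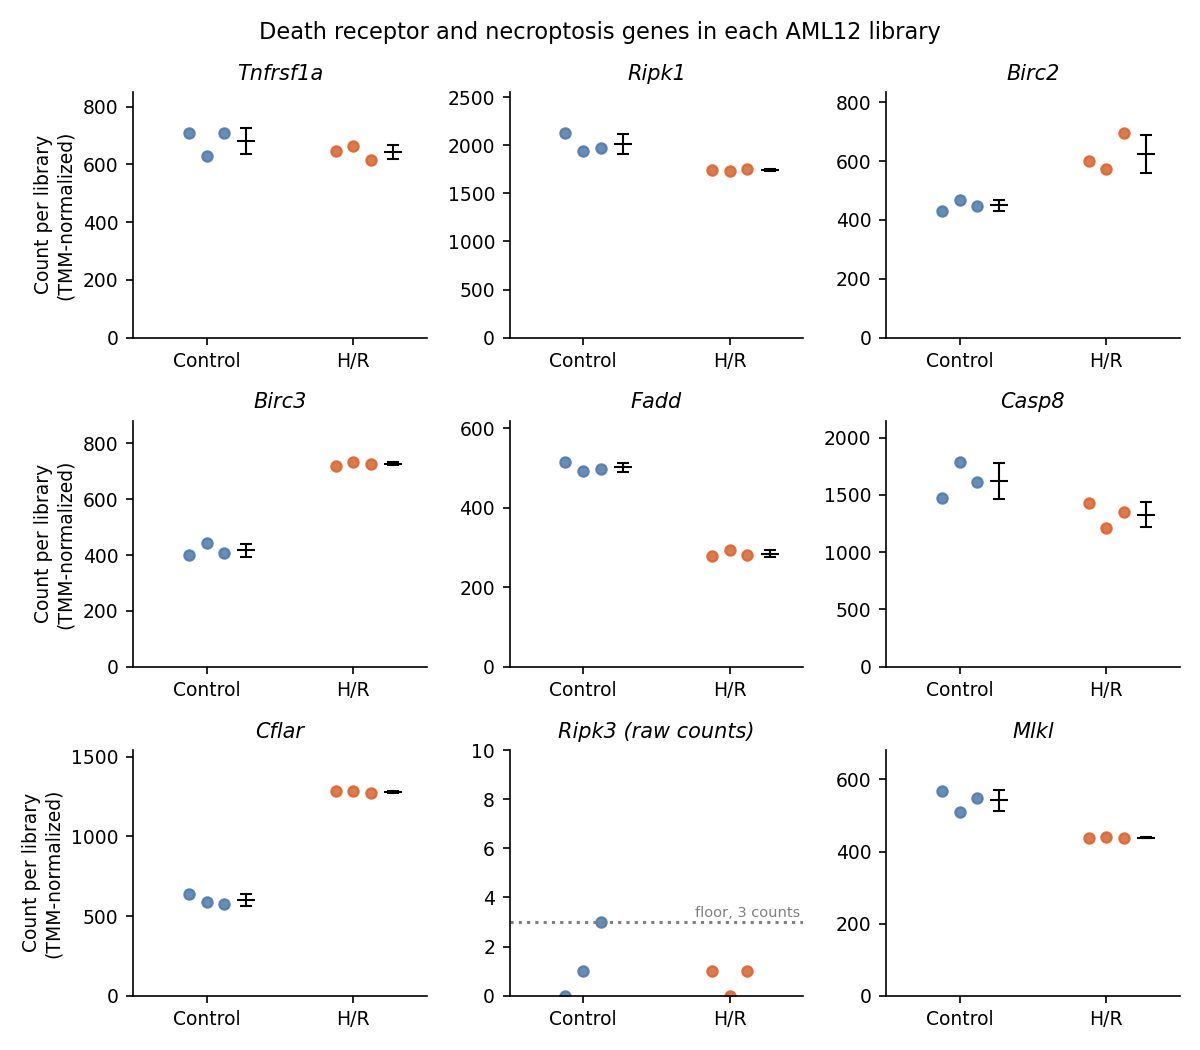
TMM-normalized count per library (y axis, from 0) of the 9 genes in 3 Control and 3 H/R libraries; points are libraries, and the bar beside them is the mean with its SD. Ripk3 is drawn as raw counts with a dotted line at 3 counts, and no H/R library of Cflar, Birc2 or Birc3 falls among the Control libraries.

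Library totals lay between 20438746 and 21854790 counts. Hepatocyte markers were present in part. The hepatocyte transcription factor Hnf4a had between 2035 and 3209 counts, while albumin (Alb) had from 132 to 542 counts in Control and from 31 to 43 in H/R. Of 9 tested hepatocyte markers 2 rose and 7 fell, and of 4 biliary markers 3 rose and 1 fell. Of all tested genes 31.0% rose and 31.8% fell. The biliary keratin Krt19 had from 18321 to 37240 counts, so the line does not carry hepatocyte markers alone. Of 10 listed leukocyte markers, 6 were at 3 counts or fewer in every library, among them Ptprc, Adgre1 and Clec4f, and of 10 endothelial and stellate markers 9 were. The summed count of the leukocyte list ranged from 73 to 93 in Control and from 185 to 226 in H/R. Cd68 made up from 16 to 22 of it in Control and from 113 to 137 in H/R. Csf1r made up from 42 to 57 and from 60 to 79, and both genes rose. The part of these markers in the results was not tested. Control replicate 1 stood apart by liver transcripts, with 61 counts of Fga, 61 of Serpina1a and 45 of Cyp2e1, where the other 5 libraries had at most 1 count of each. Values of the members without that library are given below.

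The inhibitor of the caspase step, Cflar, lies on chromosome 1 of GRCm38 (58711508 to 58758884, plus strand). Its TMM-normalized count was 641, 586 and 574 in the libraries Control 1 to Control 3, against 1285, 1282 and 1270 in H/R 1 to H/R 3. Every H/R library lay well above every Control library, and the H/R libraries differed little among themselves. The mean went from 600 ± 35.6 to 1279 ± 7.89 (SD, n = 3 each), a log2 fold change of 1.09 (standard error, SE, 0.057, edgeR adjusted p = 4.16e-18). The 95% interval of the fold, from 1.97 to 2.31, includes the study's threshold of 2. Of all tested genes, 96.4% had a lower log2 fold change than Cflar. c-FLIP is made in long and short forms, which a count per gene does not separate. Of the stretches of 50 bases in its GENCODE M21 transcripts, 7.36% also occurred in transcripts of other genes, 895 in all.

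Casp8, the initiator caspase that c-FLIP resembles, is the next expressed gene on chromosome 1 (58795374 to 58847503, plus strand), 36.5 kb beyond the end of Cflar. Its normalized count was 1472, 1787 and 1608 in the Control replicates and 1428, 1209 and 1347 in the H/R replicates. The groups did not overlap, but the highest H/R library came close to the lowest Control library. The mean fell from 1622 ± 158 to 1328 ± 111 (SD, n = 3 each), a log2 fold change of -0.29 (SE 0.070, edgeR adjusted p = 0.00216).

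Within each library the count of Cflar per kb of exon was set against that of Casp8, a ratio that no scaling between libraries can move. The ratio was 0.0995, 0.0750 and 0.0816 in the Control replicates and 0.205, 0.242 and 0.215 in the H/R replicates. It was higher in each H/R library than in each Control library, although Casp8 had more counts per listed kb throughout. The listed exon length is 12669 bases for Cflar and 2893 for Casp8. Raw counts in H/R were 1193, 1189 and 1271 for Cflar and 1326, 1121 and 1348 for Casp8. In Control the raw count of Casp8 was the higher in each library. The size of the ratio rests on those lengths, as does which gene is higher in H/R replicate 2. On the log2 scale the mean was -3.56 ± 0.209 in Control and -2.18 ± 0.122 in H/R (SD, n = 3 each), a difference of 1.38 or 2.60-fold. The exact two-sided permutation test gave p = 0.1, the smallest value that 3 against 3 libraries allow.

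**Figure D2:**
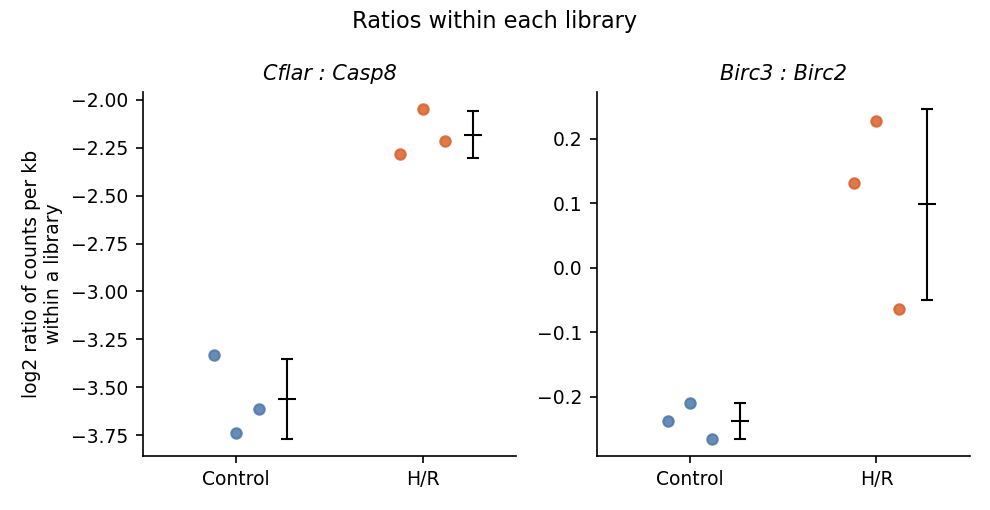
Log2 ratio of counts per kb within each library (y axis) for Cflar over Casp8 and for Birc3 over Birc2; points are the 3 Control and 3 H/R libraries, bars the mean with its SD. The Cflar ratio rises from a mean of -3.56 to -2.18, while the Birc3 ratio of 1 H/R library, at -0.06, lies below the other 2.

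Fadd, which bridges the receptor complex to caspase-8, showed the largest decrease among the members. The gene lies on chromosome 7 (144577318 to 144582463, minus strand). Its normalized count was 515, 494 and 496 in Control and 278, 294 and 282 in H/R. The replicates lay close together in both groups and the groups were far apart. The mean fell from 502 ± 11.8 to 285 ± 8.65 (SD, n = 3 each), a log2 fold change of -0.82 (SE 0.077, edgeR adjusted p = 2.43e-11). The 95% interval, from -0.97 to -0.66 on the log2 scale, ends short of a 2-fold decrease, and 7.40% of tested genes had a lower log2 fold change. The antisense gene Faddos shares 239 bases, or 6.12%, of the exons of Fadd and had a log2 fold change of -0.79. Of the stretches of 50 bases in Fadd transcripts, 6.95% occurred in transcripts of 292 other genes. Whether strand was used in counting is not given in the sources used here, so reads in that stretch cannot be told apart.

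The cIAP genes lie side by side on chromosome 9, Birc2 at 7818227 to 7837064 and Birc3 at 7848699 to 7873186, both on the minus strand and 11.6 kb apart. Birc3 (cIAP2), a known target of NF-kB, had normalized counts of 401, 443 and 408 in Control and 721, 733 and 727 in H/R. The H/R libraries were nearly equal and all well above Control. The mean rose from 417 ± 22.6 to 727 ± 6.43 (SD, n = 3 each), a log2 fold change of 0.80 (SE 0.065, edgeR adjusted p = 5.84e-13). Birc2 (cIAP1) had normalized counts of 432, 468 and 448 in Control and 601, 573 and 696 in H/R. All H/R libraries were above Control, and H/R replicate 3 was the highest by some way. The mean rose from 449 ± 18.2 to 623 ± 64.3 (SD, n = 3 each), a log2 fold change of 0.47 (SE 0.072, edgeR adjusted p = 6.99e-07).

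The ratio of Birc3 to Birc2 per kb was 0.848, 0.865 and 0.832 in the Control replicates and 1.10, 1.17 and 0.956 in the H/R replicates. The difference was 0.34 on the log2 scale (p = 0.1 by the exact permutation test, again its lowest possible value), so Birc3 gained on Birc2 in every H/R library, least in replicate 3. The transcripts of the pair share little sequence. Of the 4579 stretches of 50 bases in GENCODE M21 transcripts of Birc2, 1.49% also occurred in transcripts of another gene, chiefly Birc3. For Birc3 the share was 7.56%, spread over 164 other genes. With the counts of both genes added, the log2 fold change was 0.64 (edgeR adjusted p = 2.20e-12).

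**Figure D3:**
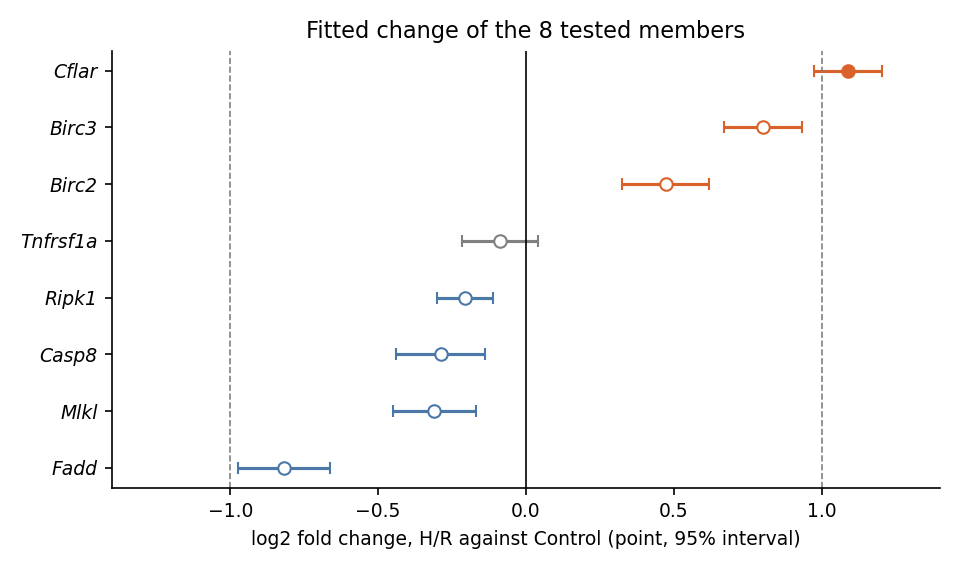
Fitted log2 fold change of H/R against Control (x axis) with its 95% interval for the 8 tested members; orange marks genes that rose, blue genes that fell and grey the gene that did not pass, and a filled point marks a gene past both thresholds. The dashed lines stand at a 2-fold change, and the interval of Cflar, whose estimate is 1.09, reaches below it.

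The receptor gene Tnfrsf1a (chromosome 6, 125349362 to 125362484, plus strand) had normalized counts of 709, 631 and 708 in Control and 646, 665 and 616 in H/R. The groups overlapped. The mean was 683 ± 44.8 in Control and 642 ± 25.1 in H/R (SD, n = 3 each), a log2 fold change of -0.09 (SE 0.063, edgeR adjusted p = 0.225). The 95% interval of the fold, from 0.860 to 1.03, leaves room for a decrease of the size seen for Ripk1. Under upper quartile scaling and under library totals alone, the adjusted p fell to 0.0274 and 0.00993, with log2 fold changes of -0.16 and -0.19.

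Ripk1, the kinase on which survival and death signals meet, lies on chromosome 13 (34002363 to 34035170, plus strand). Its normalized count was 2128, 1938 and 1973 in Control and 1746, 1734 and 1754 in H/R. The H/R libraries were almost level and each lay below the lowest Control library. The mean fell from 2013 ± 101 to 1745 ± 9.86 (SD, n = 3 each), a log2 fold change of -0.21 (SE 0.047, edgeR adjusted p = 0.000262). Of its exon length, 34.3% is shared with Gm17084 on the same strand, which had from 85 to 113 counts, and 3.93% with Serpinb6a on the other strand, which had from 12312 to 14962 counts and rose by 0.33 on the log2 scale. The share of Ripk1 counts that belongs to those genes was not determined.

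Ripk3, the kinase that commits a cell to necroptosis, was at the floor. The gene (chromosome 14, 55784996 to 55788857, minus strand) was counted 0, 1 and 3 times in the Control libraries, against 1, 0 and 1 times in the H/R libraries, in libraries of at least 20438746 counts. Neither group was above 3 counts in any library, the level treated here as not detectable, so no fold change is given. For a transcript of this length, 3 counts correspond to between 0.070 and 0.075 RPKM (reads per kb of exon, scaled to the library total), and a level below that would not have been seen. None of the 2378 stretches of 50 bases in its GENCODE M21 transcripts occurred in transcripts of another gene, and its exons overlap no other listed gene.

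Mlkl, the substrate of RIPK3 that opens the plasma membrane, was by contrast well covered (chromosome 8, 111311797 to 111338177, minus strand). Its normalized count was 568, 511 and 549 in Control and 436, 439 and 439 in H/R. Each H/R library lay below each Control library and the H/R libraries were nearly identical. The mean fell from 543 ± 29.0 to 438 ± 1.52 (SD, n = 3 each), a log2 fold change of -0.31 (SE 0.069, edgeR adjusted p = 0.000223).

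Levels of different genes were compared as RPKM, the deposited values per length. In Control the order from high to low was Casp8 (27.5 ± 2.77), Ripk1 (16.1 ± 0.678), Tnfrsf1a (12.9 ± 0.913), Mlkl (11.5 ± 0.622), Fadd (6.29 ± 0.112), Birc2 (4.81 ± 0.223), Birc3 (4.08 ± 0.224) and Cflar (2.32 ± 0.108), each a mean RPKM with SD over 3 libraries. Tnfrsf1a and Mlkl overlapped in that order, and the other neighbours did not. In H/R the first 4 places were the same, Birc3 (6.61 ± 0.093) and Birc2 (6.20 ± 0.697) followed and overlapped, and Cflar (4.60 ± 0.014) stood above Fadd (3.32 ± 0.101). Cflar and Fadd therefore changed places by RPKM: Cflar was the lowest of the 8 detected members in Control, and Fadd was in H/R. That order depends on the listed exon lengths, of which that of Cflar, 12669 bases, is the longest among the members. For Ripk1, 38.3% of that length is shared with other listed genes. How reads there were counted is not given in the sources used here, so its place below Casp8 may depend on that. Ripk3 was at or below 0.072 RPKM in every library.

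**Figure D4:**
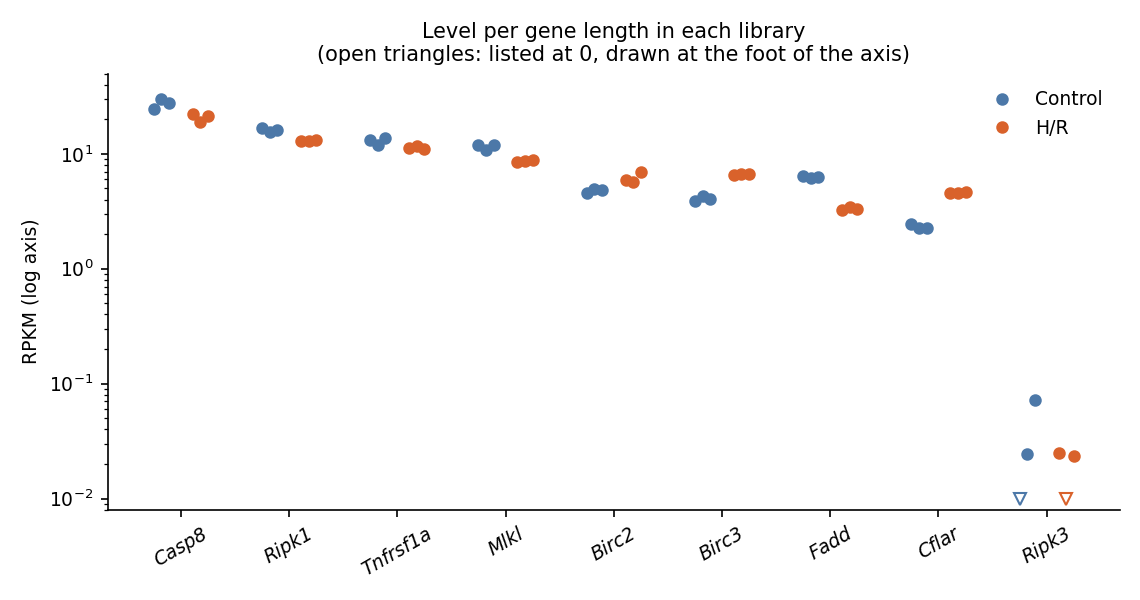
RPKM of the 9 genes in each library (y axis, log scale), ordered by their mean over the 6 libraries; filled points are libraries and open triangles at the foot of the axis mark libraries in which a gene is listed at 0. Ripk3 lies far below the other members, and Cflar and Fadd change places between Control and H/R.

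RefSeq promoters of GRCm38.p6, 250 bases before to 50 after a start site, were found for all 9 members. There were 11 windows in all, since Ripk1 and Birc2 have a pair each. The only Casp8 window, 58802252 to 58802551, lies inside the gene as listed here, which starts at 58795374. Bases before that listed start of Casp8 were not searched. The 11 windows were searched on both strands for 5 short motifs. The core of the hypoxia response element (ACGTG) was matched in the windows of Fadd, Cflar and Ripk3, and in 19.6% of all 32851 windows. The match of Cflar, from position -3 to 2, spans its start site, and those of Ripk3 form a palindrome on which both strands overlap. The STAT motif (TTCNNNGAA) was matched in 1 Ripk1 window, at 2 places, and in that of Tnfrsf1a (8.30% of all windows). A motif of interferon response elements was matched in the same Ripk1 window, where it overlaps a STAT match, and in Cflar (3.44%). The AP-1 motif (TGANTCA, 7.81% of all windows) and an NF-kB motif (1.47%) were matched in no member, which says only that these letters are absent from these windows. Shown are the 200 bases that end 51 bases before the start site of the member called higher, of the cIAP gene with the larger rise, of the member with the largest decrease and of the undetected kinase, with motif matches in capitals.
Cflar (chr1:58711241-58711440, plus strand): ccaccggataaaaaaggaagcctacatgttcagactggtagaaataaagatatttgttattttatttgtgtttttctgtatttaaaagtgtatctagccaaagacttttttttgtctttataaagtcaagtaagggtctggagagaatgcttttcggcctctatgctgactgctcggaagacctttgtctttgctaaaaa
Birc3 (chr9:7873221-7873420, minus strand): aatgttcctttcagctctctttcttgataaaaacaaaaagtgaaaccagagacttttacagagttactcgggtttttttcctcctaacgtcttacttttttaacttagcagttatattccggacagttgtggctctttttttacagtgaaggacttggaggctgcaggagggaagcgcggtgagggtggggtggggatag
Fadd (chr7:144582492-144582691, minus strand): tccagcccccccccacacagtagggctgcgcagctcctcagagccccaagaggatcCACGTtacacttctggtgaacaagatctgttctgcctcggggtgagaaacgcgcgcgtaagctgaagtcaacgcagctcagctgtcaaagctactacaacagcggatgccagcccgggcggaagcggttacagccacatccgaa
Ripk3 (chr14:55788908-55789107, minus strand): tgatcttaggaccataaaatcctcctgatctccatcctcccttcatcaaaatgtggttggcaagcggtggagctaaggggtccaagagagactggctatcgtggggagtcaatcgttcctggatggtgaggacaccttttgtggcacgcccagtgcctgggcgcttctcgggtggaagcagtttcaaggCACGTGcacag

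These windows differ in base composition. The whole promoter of Fadd holds 60.3% G and C and 22 CG dinucleotides. That of Ripk3 holds 52.7% and 10, that of Cflar 45.0% and 12, and that of Birc3 43.0% and 7, while the median over all windows is 52.7% and 7.

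The other genes of the pathway were taken from 7 lists of 84 genes, of which 82 are in the tables and 74 could be tested. Of these 74, 34 rose and 27 fell, and 6 passed both thresholds, 3 in each direction. Of all tested genes 31.0% rose, 31.8% fell and 8.52% passed both thresholds, so the 6 calls among 74 are near the share over all genes. The median log2 fold change of the 74 was 0.08, beside -0.01 for all tested genes. The ligands were scarce: Tnf had at most 2 counts in any library, Lta at most 2 and Tnfsf10 at most 1. The exception, Tnfsf12 (TWEAK), fell with a log2 fold change of -0.19, but shares 48.3% of its exon length with another gene.

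Among 9 tested death receptors and decoy receptors, 6 rose and 3 fell, where 31.0% of all tested genes rose and 31.8% fell. The list's median log2 fold change was 0.55. Fas, the receptor that recruits FADD directly, had normalized counts of 401, 442 and 459 in Control and 1030, 1194 and 1333 in H/R. All H/R libraries were above Control, with some spread among them. The mean rose from 434 ± 30.2 to 1186 ± 152 (SD, n = 3 each), or 2.73-fold (edgeR adjusted p = 1.18e-10). Eda2r, a receptor of the same family, rose 2.65-fold from 159 ± 6.17 to 422 ± 11.5 (SD, n = 3 each). Tnfrsf12a, the receptor of TWEAK, rose 1.91-fold, and Tnfrsf10b, the receptor of TRAIL, 1.46-fold. Tnfrsf21, known as death receptor 6, and Ltbr fell, with log2 fold changes of -0.70 and -0.43.

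Of 7 adaptors, 3 rose and 1 fell, where 31.0% of all tested genes rose and 31.8% fell. The median of the adaptors was 0.05 on the same scale. Traf1, which binds the cIAPs through TRAF2, had the largest rise of any gene on these pathway lists, 3.35-fold from 31.5 ± 5.40 to 106 ± 5.64 normalized counts (SD, n = 3 each, edgeR adjusted p = 2.60e-10), at low counts. Traf2 rose 1.23-fold. Tradd, which brings RIPK1 to TNFR1, fell with a log2 fold change of -0.45.

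Among 15 ubiquitin ligases, deubiquitinases and ubiquitin-binding proteins, 9 rose and 4 fell, beside the 31.0% and 31.8% of all tested genes, and the median was 0.37. Cyld and Tnfaip3 (A20), which remove ubiquitin chains at the TNFR1 complex or edit them, rose 1.60-fold and 1.42-fold. Xiap, a caspase inhibitor of the same family as the cIAPs, fell with a log2 fold change of -0.26. Otulin, which cleaves linear ubiquitin chains, was called lower. Its raw counts were 1827, 1685 and 1148 in Control and 381, 385 and 702 in H/R, so both replicates numbered 3 lay nearer to the opposite group than their fellows. The log2 fold change was -1.54 (SE 0.325, edgeR adjusted p = 0.0147). Without Control replicate 2, H/R replicate 1 or H/R replicate 2 its adjusted p was 0.0503, 0.0546 and 0.0566, and it was 0.101 in the edgeR fit with a replicate block.

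Of 16 kinases, kinase partners and phosphatases that act on RIPK1 or RIPK3 or beside them, 7 rose, 7 fell and none passed both thresholds. Their median log2 fold change was -0.08. Of all tested genes, 31.0% rose, 31.8% fell and 8.52% passed both thresholds. Mapkapk2 (MK2), which phosphorylates RIPK1, had a log2 fold change of 0.95, and Ikbkg (NEMO) one of -0.63. Of 14 tested genes of other necroptosis inputs and of membrane repair, 8 rose and 2 fell. Both that fell were called lower, and the median was 0.23, beside -0.01 and the shares just given for all tested genes. Eif2ak2 (PKR), a sensor of double-stranded RNA, fell from 1913 ± 90.4 to 799 ± 92.9 (SD, n = 3 each), a log2 fold change of -1.26. Tlr3, another such sensor, had from 38 to 46 counts in Control and from 9 to 23 in H/R, a log2 fold change of -1.15 (edgeR adjusted p = 0.000512), and without H/R replicate 1 its log2 fold change was -0.85. Zbp1, the nucleic acid sensor that can engage RIPK3 without a death receptor, was at the floor like Ripk3, with at most 3 counts in any library.

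Of 12 tested caspases and genes of the mitochondrial link, 9 fell and 1 rose, and none passed both thresholds, where 31.8% of all tested genes fell, 31.0% rose and 8.52% passed both. Bid, which caspase-8 cleaves to reach the mitochondria, fell with a log2 fold change of -0.37, and shares 17.7% of its exon length with Bcl2l13 on the other strand. The median log2 fold change of this list was -0.36, beside -0.01 for all tested genes.

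**Figure D5:**
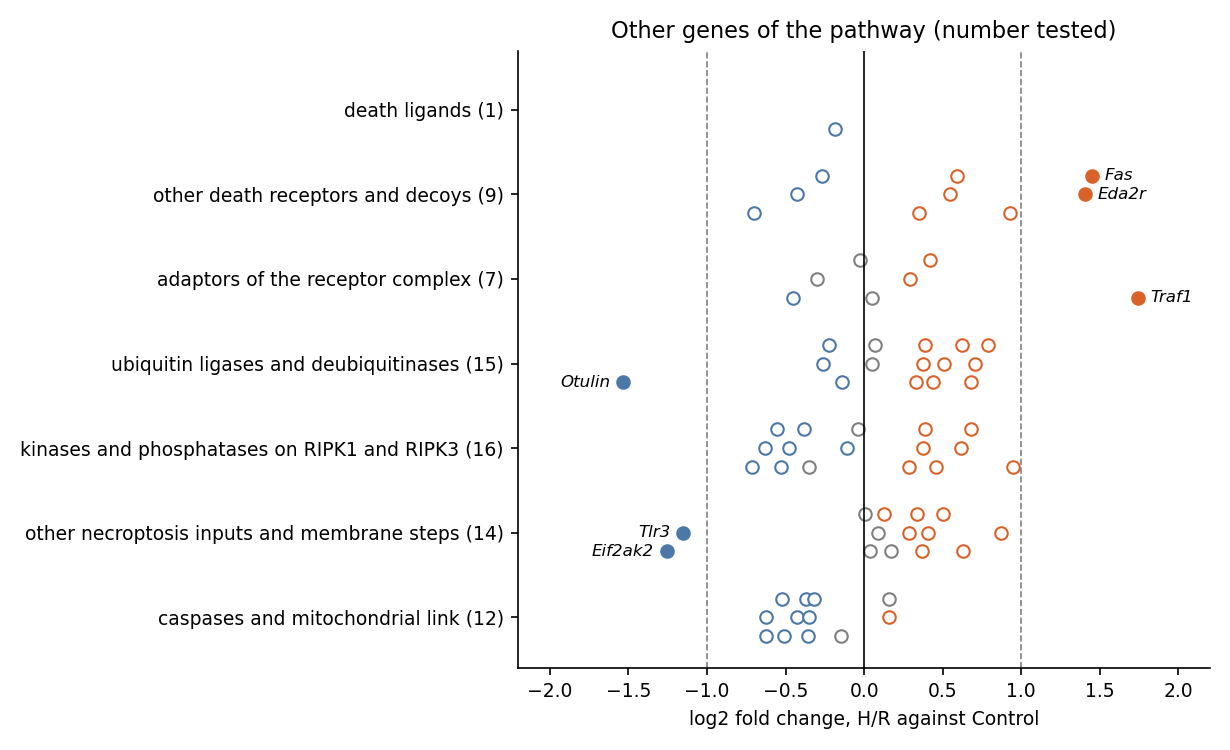
Fitted log2 fold change of H/R against Control (x axis) for 74 other genes of the pathway in 7 lists; orange points rose, blue points fell, grey points did not pass, and filled, named points passed both thresholds, whose fold change of 2 is dashed. Traf1, Fas and Eda2r lie farthest to the right and Otulin, Eif2ak2 and Tlr3 farthest to the left.

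For the core genes and the called member, the genes with the most similar course over the 6 libraries were sought among 10177 others with a mean count of at least 100, as the Euclidean distance between log2 CPM values set to the Control mean. The nearest to Cflar were Csrp1 (distance 0.068), Pdlim2 (0.093) and Gcnt3 (0.093). Csrp1 went from 1428 ± 74.7 to 3110 ± 47.6 normalized counts (SD, n = 3 each). The nearest to Ripk1 were Tcp1 (0.050), Ccdc38 (0.052) and Dclre1c (0.056), and the nearest to Mlkl were Gm42413 (0.047), Nudcd2 (0.059) and Iscu (0.072). Exons of Tcp1, Ccdc38 and Gm42413 overlap those of other genes. Since the 6 libraries form 2 groups, the distance mostly measures the size of the change.

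The members kept their direction without Control replicate 1, the library with liver transcripts. The log2 fold change there was 1.14 for Cflar, 0.77 for Birc3, 0.45 for Birc2, -0.06 for Tnfrsf1a, -0.16 for Ripk1, -0.28 for Mlkl, -0.35 for Casp8 and -0.80 for Fadd. Cflar was again called, and the same 7 members had an adjusted p under 0.05 by edgeR's quasi-likelihood test.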

How the data were processed

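RNA was extracted from AML12 cells with Trizol and made into stranded mRNA libraries, 3 Control and 3 H/R. The authors mapped reads to GRCm38 (mm10) with software printed as STRA (2.5.3a). The submitters' processing notes also name Trimmomatic 0.36, featureCounts, Subread 1.5.1 and edgeR 3.12.1, without roles. The gene annotation and the strand setting of the counting are not given in the sources used here. The deposited counts are whole numbers per gene, and the deposited RPKM values follow from count, length and library total (largest relative error 1.13e-06). Coordinates are those of the tables, counted from 1.

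The test was edgeR 4.0.16 in R 4.3.3 (filterByExpr, TMM, glmQLFit with robust estimation, glmQLFTest, Benjamini-Hochberg adjustment over 14020 genes). The procedure was also run on simulated counts with a single spread for all genes and few changed genes. Many genes changed in these data, so that run does not bear on the scaling. Normalized counts are scaled to the mean TMM-adjusted library total. Standard errors were derived from the F statistic. A gene was called at an adjusted p under 0.05 and a fold change of at least 2, and 3 counts in every library was the floor. The log2 ratios had 0.5 added to each count and were compared by exact two-sided permutation tests (scipy 1.17.1). Alternatives used DESeq2 1.42.0 and limma 3.58.1. Counting error, about the square root of a count, is relatively largest for Ripk3. It exceeds some printed SDs, among them the H/R SDs of Mlkl, Birc3, Cflar and Ripk1. The closeness of those libraries is therefore no measure of precision.

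All 9 members are named, and of the other lists each called gene, the defining genes and, as examples chosen after values were seen, Lta, Tnfsf12, Eda2r, Tnfrsf12a, Tnfrsf21, Ltbr, Mapkapk2 and Ikbkg. Markers were Alb, Hnf4a, Krt19 and others of 4 lists. The members and lists were chosen with earlier results of these data known. Some genes of the lists are not reported here. Protein sequences were not used here.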

Additional observations from a re-analysis of the deposited data

How the results depend on the processing

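Over the alternatives run, none of the 8 tested members and none of the 6 called genes of the other lists changed direction, and 197 of 205 values kept their side of an adjusted p of 0.05. The exceptions were Tnfrsf1a, which passed under upper quartile scaling, library totals and both limma fits (log2 fold changes of -0.18 and -0.19), and Otulin, which did not pass with 1 library left out, as given above, or with the replicate number as a block (adjusted p = 0.101, edgeR's quasi-likelihood test). The call of Cflar lies at the fold threshold. It rested on TMM, upper quartile scaling or DESeq2. With library totals its log2 fold change was 0.99 (adjusted p = 2.06e-16, edgeR), and in limma fits it was 0.75 on log2(RPKM + 1) and 0.96 on log2(RPKM + 0.1) (adjusted p = 1.37e-05 in both), so 0 members were called in each of these 3 settings, although all 8 tested members then had an adjusted p under 0.05. In a test against a 2-fold change (edgeR's glmTreat, chosen after seeing the data) 0 members passed, with an unadjusted p of 0.0170 for Cflar and none under 0.05 otherwise. By construction, 7 members were called without a fold threshold and 3 (Cflar, Birc3 and Fadd) at 1.5-fold, where 24.4% of all genes were. With 1 library left out, 1 member was called in each of the 6 fits, and the log2 fold change of Cflar ranged from 1.06 to 1.14. The number of other pathway genes called, 6, was 3 on log2(RPKM + 1), 61 without a fold threshold and 22 at 1.5-fold. The number of all genes called, 1195, was 406 on log2(RPKM + 1), 474 in the test against a 2-fold change, 772 among the genes that share no exon sequence (chosen after seeing the data), 8806 without a fold threshold and 3420 at 1.5-fold. With library totals the median over all genes was -0.12 on the log2 scale. Same-numbered libraries did not deviate together (correlations of -0.027, 0.0048 and -0.014), and the main fit used no pairing. With so few libraries this cannot exclude that same-numbered libraries were made together, which the labels do not say. With the replicate block 1200 genes, 1 member and 5 other pathway genes were called. The adjusted p of Casp8 was then 0.0424 (edgeR), against 0.00216 in the main fit. The ratio of Ripk3 to Ripk1 was not run because Ripk3 was at the floor. The depth limits Ripk3, Zbp1 and the ligands. The difference in the log2 ratio of Cflar to Casp8 ranged from 1.291 to 1.495 with 1 library left out, and that of Birc3 to Birc2 from 0.27 to 0.42, shifts below the larger of the Control and H/R SDs. For Birc3 to Birc2 that was the H/R SD of 0.149, and the largest shift exceeded the Control SD of 0.028.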

Other observations

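The genes around the pairs Cflar and Casp8 and Birc2 and Birc3 were looked at after the values of the pairs had been seen. Within 100 kb of Cflar and Casp8, the well expressed neighbour Trak2, which links mitochondria to motor proteins, changed by -0.03 on the log2 scale (edgeR adjusted p = 0.642) and a mean normalized count of 1966 in Control and 1931 in H/R. Als2cr12 had one of 0.07 (adjusted p = 0.687) at about 92.4 and 97.1 normalized counts. Within 100 kb of Birc2 and Birc3, Tmem123 changed by 0.09 on the log2 scale (adjusted p = 0.135) and Yap1, the transcriptional coactivator of the Hippo pathway, fell with one of -0.13 (adjusted p = 0.0321). The other tested neighbours had mean normalized counts of 201 or fewer. Of these, Cbx3-ps7 fell from 201 to 122 (log2 fold change -0.72) and RP23-350M23.5 fell from 18.4 to 8.69 (-1.07). Gm28802 (-0.63), Gm20257 (-0.29) and Gm20416 (-0.08) did not pass the test. Cbx3-ps7 shares 57.4% of its exon length with Als2cr12 on the other strand. The differences between members and neighbours were not tested.

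Map3k7 (TAK1), the kinase that acts downstream of RIPK1 ubiquitination, was chosen after its values were seen. Its raw counts were 1201, 1227 and 990 in Control and 705, 769 and 972 in H/R. By normalized counts the groups overlapped, with 932 in Control replicate 3 and 971 in H/R replicate 3. As for Otulin, replicate 3 of each group lay nearest to the other group. Its log2 fold change of -0.35 did not pass (edgeR adjusted p = 0.0598).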
